A study of Homo sapiens with 5 samples.

Results

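Androgens are steroid hormones that switch on genes of secretion and metabolism in prostate epithelium. The genes described here are 31 such genes outside the kallikrein family, taken by symbol from what is known of androgen induction in prostate cells. All 31 were found among the 58812 Ensembl gene IDs counted. RNA was sequenced in 5 libraries of C4-2B, a line descended from LNCaP that grows without testicular androgen and was labelled as metastatic castration-resistant prostate cancer. The parental line gave 2 libraries, the mutant clone C4K13A gave 2 and the mutant clone C5K13A gave 1. In the clones, K13A replaces a lysine of the prostate homeobox factor HOXB13 with alanine, and the series asked which transcripts depend on acetylation of that lysine. Parental cells and clones were cultured in the same C4-2B medium, and the labels name no androgen, inhibitor or time point. Each mutant group is 1 clone, so the K13A change and other differences between clonal lines cannot be told apart. Nothing in the labels says that libraries of one group came from separate cultures, so p-values reflect the spread between libraries alone, and that spread may be technical.

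Steroid receptors wait in the cytoplasm in a chaperone complex until they bind hormone, and then bind DNA; in prostate cells they do so beside the pioneer factor FOXA1 and the homeobox factor HOXB13. Androgen-induced genes in the prostate serve secretion, lipid and amino acid metabolism and the elongation of transcripts, and some of them feed back on hormone signalling. FKBP5, for example, encodes a co-chaperone of steroid receptor complexes and is a widely used readout of androgen and glucocorticoid action. Castration-resistant cells keep androgen signalling active at low androgen.

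Library totals ran from 43190276 to 57282373 counts, and between 27337 and 30647 genes had a count. Levels are given as CPM, counts scaled to the library total with TMM factors. HOXB13 itself stood between 337 and 449 CPM in the 5 libraries, and a gene count cannot check a single amino acid change. The labelled cell type matched its markers, with a summed level of 8 luminal prostate epithelium markers of 2962 to 3018 CPM in parental and 3125 to 3488 in K13A libraries, and of 3 basal markers of 0.202 to 0.512 and 0.0400 to 0.213 CPM. The luminal sum was higher in every K13A library than in both parental ones. Sums of the neuroendocrine, fibroblast, leukocyte and endothelial markers were lower in every K13A library. The neuroendocrine, fibroblast and endothelial sums rested mostly on SYP, COL1A1 and VWF, and other markers did not all follow. COL3A1 was higher in every K13A library, at 0.319 and 0.276 CPM in parental, 0.620 and 1.39 in C4K13A and 0.686 in C5K13A. CHGA overlapped between the groups, and PECAM1 was highest in C5K13A. The 3 neuroendocrine markers gave 2.84 to 2.97 CPM in parental and 2.32 to 2.56 in K13A libraries. The 5 fibroblast markers gave 6.89 to 6.99 CPM in parental and 5.09 to 6.17 in K13A libraries, with LUM at 0 throughout. The 4 leukocyte markers, with CD3E at 0 throughout, gave 0.151 to 0.256 and 0.0236 to 0.0600 CPM, and the 3 endothelial markers 5.61 to 5.68 and 2.65 to 4.35 CPM. Their part in the results was not tested. Residual mitochondrial ribosomal RNA also split the libraries, at 29.03 CPM in parental library 1 and 65.4 in C4K13A library 1 against 353 in C4K13A library 2, 658 in C5K13A and 1723 in parental library 2. Values within each side of that split are therefore given beside the main results. The low side sets C4K13A library 1 against parental library 1. The high side sets the mean of C4K13A library 2 and C5K13A against parental library 2. A difference between the sides can thus come from the clones as well as from the split.

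Upstream sequence could be read for 23 of the 31 genes, as the 250 bases before a start of each gene in the RefSeq table (GRCh38.p14). Only the first listed start of a gene was read, so promoters at its other starts are not described. FKBP5, the gene that passed a test below, and SLC45A3, one of the genes lowest in C5K13A, are shown to set their promoters side by side; both were chosen after their values were seen. The FKBP5 window lies at chr6:35728584-35728833 and the SLC45A3 window at chr1:205680510-205680759, both on the minus strand and both free of annotated exons. Capitals mark a match, on the opposite strand, to CAATAAA, a sequence that HOXB13 binds.
FKBP5: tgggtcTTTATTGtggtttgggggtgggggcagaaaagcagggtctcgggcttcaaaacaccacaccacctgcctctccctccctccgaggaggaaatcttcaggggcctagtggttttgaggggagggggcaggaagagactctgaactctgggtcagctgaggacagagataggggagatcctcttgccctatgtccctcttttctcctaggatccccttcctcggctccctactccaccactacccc
SLC45A3: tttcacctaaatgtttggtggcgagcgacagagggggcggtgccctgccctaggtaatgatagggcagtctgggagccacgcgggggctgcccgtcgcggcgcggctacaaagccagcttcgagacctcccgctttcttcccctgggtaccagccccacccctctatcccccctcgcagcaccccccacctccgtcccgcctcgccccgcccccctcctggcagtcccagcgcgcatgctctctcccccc
The match in FKBP5 began 244 bases before the start. FKBP5 was the 1 gene of the 23 with this motif, a share of 4.35% beside 3.67% of the 34943 upstream windows of the table. On either strand, a single arm of an androgen response element, AGAACA, was in 0 of the 23 windows and in 12.4% of all windows. The full element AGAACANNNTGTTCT was in 0 of the 23 and in 0.00286% of all, the forkhead motif TGTTTAC in 0 and 2.98%, and CTCGTAAA, another HOXB13 sequence with a CG, in 0 and 0.117%. The GC content was 57.6% in the FKBP5 window, with 3 CG pairs, and 69.2% in the SLC45A3 window, with 19. The median over the 23 windows was 63.2%, against 58% over all. A match or its absence describes these letters only.

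Levels of the 31 genes ran from 0.256 CPM for STEAP4 in parental library 2 to 894 CPM for PLPP1 in C4K13A library 2. At least 10 CPM was reached in every library by 25 of them, and EAF2, NNMT, STEAP4, ADAM7 and SGK1 were under 10 CPM in every library. To compare levels between genes, CPM was divided by exon length. On this scale PLPP1, a phosphatase of lipid phosphates, ranked first in parental, C4K13A and C5K13A cells, at 212, 375 and 385 CPM per kb. SPDEF, an ETS factor of prostate epithelium, came next in each, at 95.2, 151 and 91.2 CPM per kb. TMPRSS2, the transmembrane serine protease whose promoter drives gene fusions in prostate cancer, ranked 3 in parental cells, 10 in C4K13A and 14 in C5K13A, at 84.2, 40.6 and 17.5 CPM per kb. ELL2, an elongation factor, ranked 16, 5 and 9, and FKBP5 ranked 14, 7 and 10. Over the 5 libraries, the highest CPM was less than 2 times the lowest in 16 of the 31 genes. The plot of levels by library shows this spread for every gene.

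**Figure D1:**
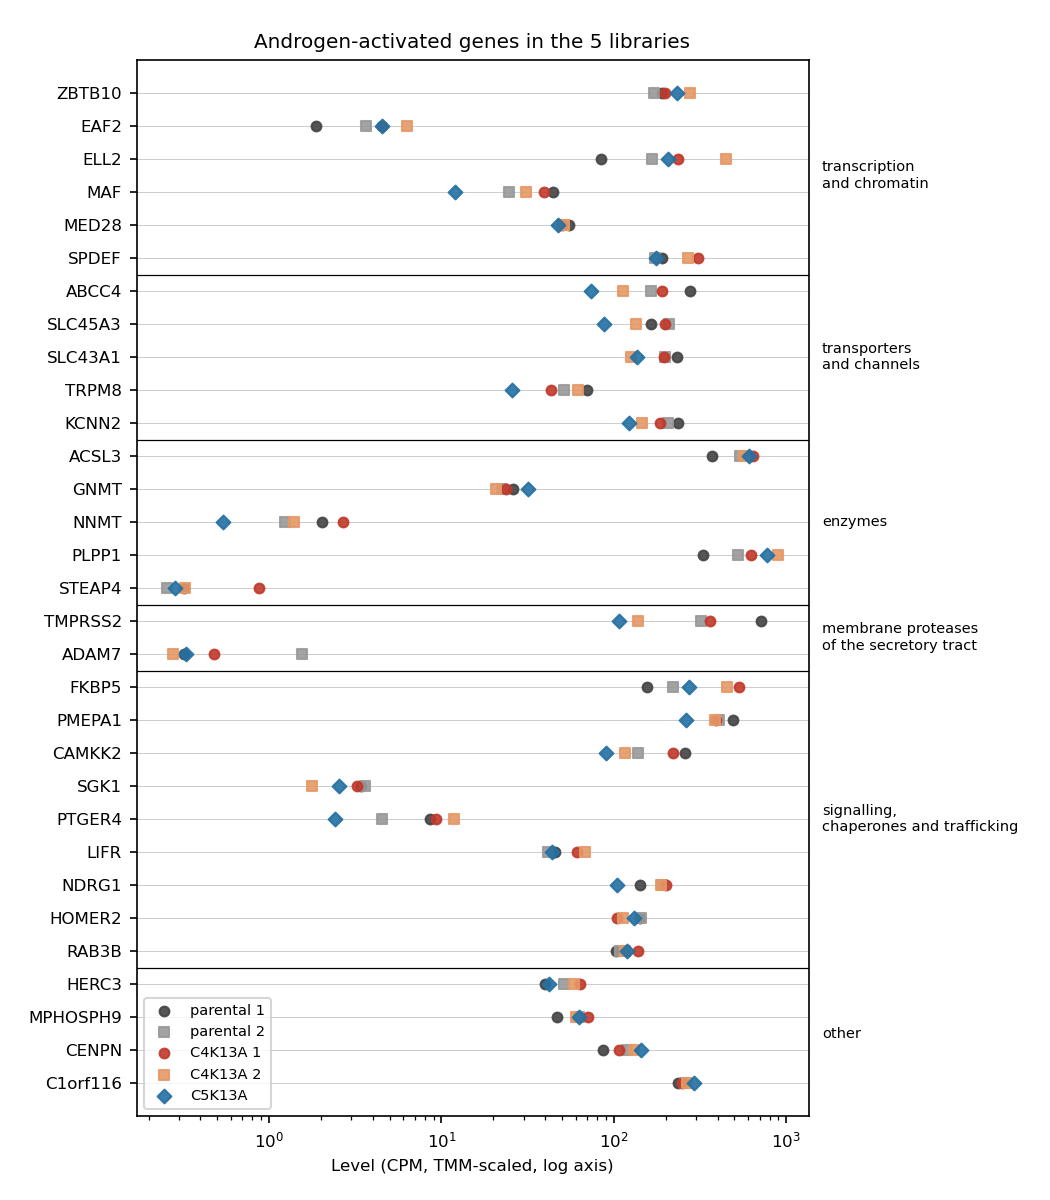
Level of each of the 31 androgen-activated genes in CPM on a log axis, with 1 symbol for each of the 5 libraries and the genes grouped by role. The blue diamonds of C5K13A lie lowest of the 5 for 12 genes and highest for 3.

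FKBP5 rose in clone C4K13A, by 1.39 on the log2 scale, and was the 1 gene of the 31 that passed the test in any comparison. None of the others was called, and their fitted changes went both ways. ELL2, PLPP1 and EAF2 were among 7 genes (22.6%, beside 13.8% of all genes) that read higher in all 3 K13A libraries than in both parental ones. The 5 transporters and channels had negative fold changes in both clones, larger in C5K13A than in C4K13A, with 0 of the 5 called between the clones. TMPRSS2, ABCC4, MAF, TRPM8 and SLC45A3 were among 12 genes (38.7%, beside 18.9% of all genes) whose lowest level of the 5 libraries was in C5K13A.

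All K13A libraries together were first set against the parental line with edgeR's quasi-likelihood test and Benjamini-Hochberg adjustment over 20649 genes, of which 0.203% were called at an adjusted p under 0.05. None of the 31 genes was called (0 of 31), and 7 (22.6%) had an unadjusted p under 0.05, beside 11.0% of all genes. DESeq2, which called 2.69% of all genes, called ELL2, PLPP1 and FKBP5 among the 31, and limma-voom called 0. Fitted fold changes were positive for 16 (51.6%, beside 49.4% of all genes) and negative for 15, with a median of 0.06 on the log2 scale, against -0.005 over all genes tested. ZBTB10, EAF2, ELL2, ACSL3, PLPP1, FKBP5 and RAB3B were higher in every K13A library than in both parental ones (7 of 31, or 22.6%, where 13.8% of all genes were). SLC43A1, KCNN2, PMEPA1, SGK1 and HOMER2 were lower in every K13A library (5 of 31, or 16.1%, where 14.7% of all genes were). In the other 19 genes the groups overlapped. This comparison counts both C4K13A libraries and the C5K13A library as replicates of one group.

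Clone C4K13A alone was compared with the parental line in a fit of 3 groups over 22743 genes, and 0.699% of them were called. FKBP5 was the 1 of 31 called, and as higher (0.0967% of all genes were called higher). By unadjusted p under 0.05 there were 7 (22.6%, beside 12.2% of all genes). DESeq2, which called 3.28% of all genes, called FKBP5, ELL2 and SPDEF among the 31. Limma-voom called 0.378% of all genes, and FKBP5 among the 31. The fitted change was positive for 18 genes (58.1%, beside 48.9% of all genes) and negative for 13, with a median of 0.20 against -0.01 over all genes. Both C4K13A libraries lay above both parental libraries for 12 genes (38.7%, beside 21.1% of all genes) and below them for 5 (16.1%, beside 23.0%).

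Clone C5K13A was compared with the same parental libraries in the same fit, which lends the lone library the spread of the other groups, and 0.0484% of genes were called. None of the 31 was called by edgeR (0 of 31), and 12 (38.7%) had an unadjusted p under 0.05, beside 6.45% of all genes. DESeq2, which called 1.03% of all genes, called MAF, ABCC4, SLC45A3 and TRPM8 among the 31, and limma-voom called 0. The fitted change was positive for 12 (38.7%, beside 47.1% of all genes) and negative for 19, with a median of -0.12 against -0.03. C5K13A lay below both parental libraries for 15 genes (48.4%, beside 35.3% of all genes) and above them for 10 (32.3%, beside 32.1%). The comparisons of the clones share the parental libraries, so the plot of fold changes by clone gives each clone's own values side by side.

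**Figure D2:**
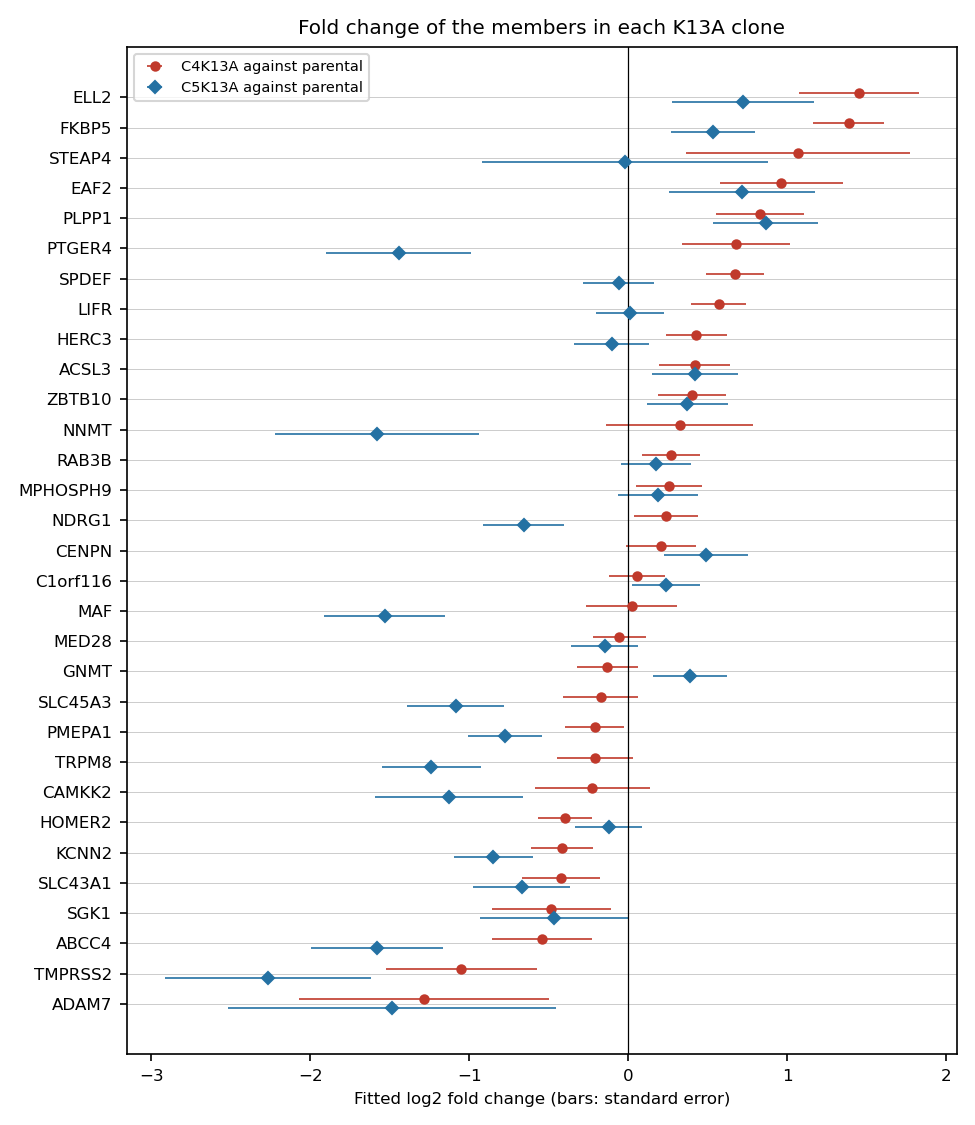
Fitted log2 fold change against the parental line for each of the 31 genes, with red circles for C4K13A and blue diamonds for C5K13A and bars for the standard error, sorted by the C4K13A value. PTGER4 is at 0.67 in C4K13A and -1.44 in C5K13A, and TMPRSS2 has the lowest C5K13A value, -2.27.

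The test of the difference between the clones compared C5K13A with C4K13A directly, and 0.0660% of genes were called. Again 0 of the 31 were called by edgeR, and 11 (35.5%) had an unadjusted p under 0.05, beside 6.42% of all genes. DESeq2, which called 0.8% of all genes, called MAF and PTGER4 among the 31, and limma-voom called 0. The fitted difference was negative, that is lower in C5K13A, for 25 genes and positive for 6 (19.4%, beside 47.1% of all genes), with a median of -0.53 against -0.03 over all genes. C5K13A lay below both C4K13A libraries for 18 genes (58.1%, beside 35.5% of all genes) and above both for 4 (12.9%, beside 35.2%). It was the lowest of the 5 libraries for 12 genes (38.7%, beside 18.9% of all genes) and the highest for GNMT, CENPN and C1orf116 (9.68%, beside 17.1%).

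**Figure D3:**
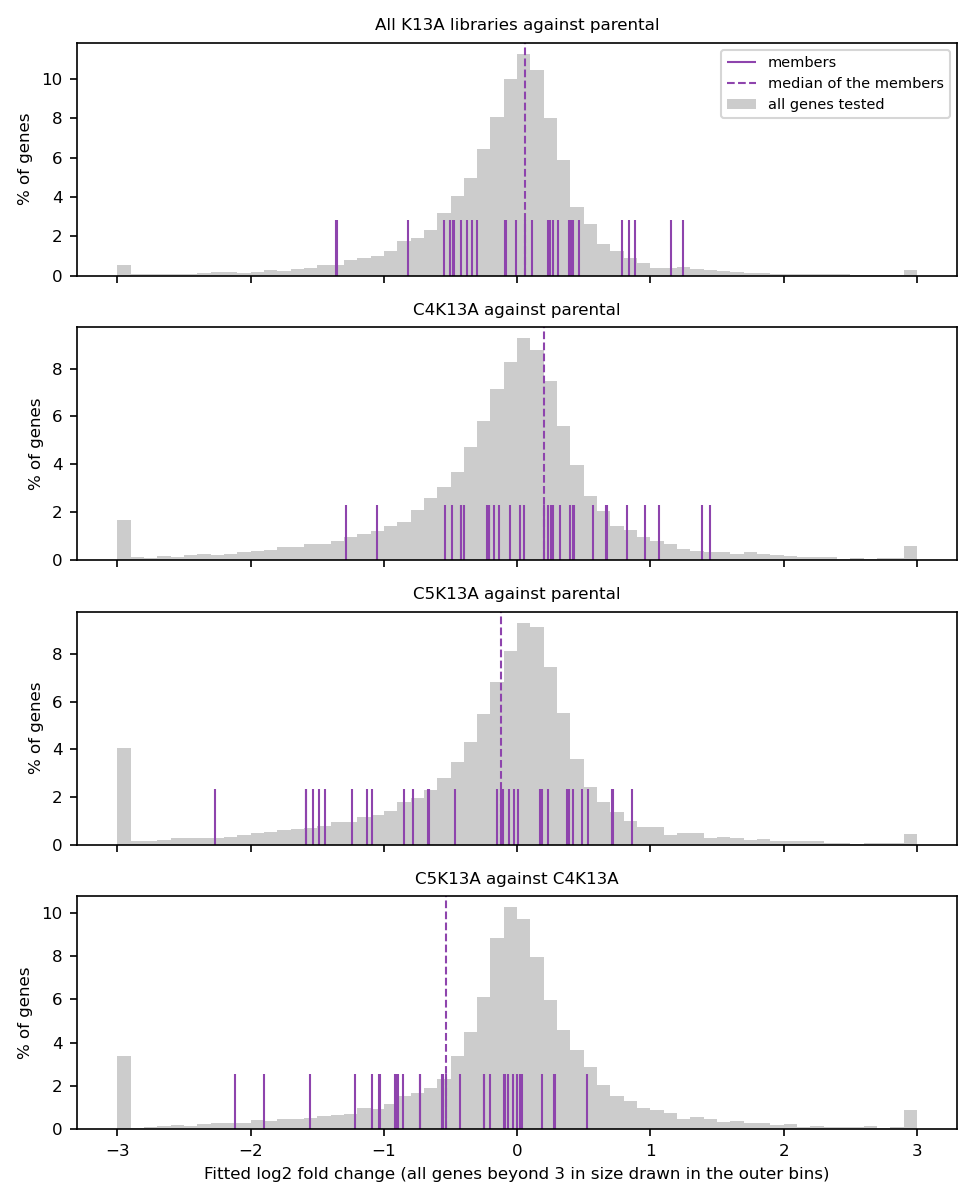
Fitted log2 fold changes of the 31 genes (purple lines, dashed for their median) over the distribution for all genes tested (grey, percent of genes per bin) in the 4 comparisons. The median is 0.06 for all K13A libraries, 0.20 for C4K13A, -0.12 for C5K13A and -0.53 for C5K13A against C4K13A.

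Of the 6 genes for transcription factors and elongation, 4 had a positive fold change over all K13A libraries, with a median of 0.43, and 0 were called. ELL2, an elongation factor of the super elongation complex (chr5:95885098-95962071, minus strand), had 84.1 and 166 CPM in parental, 236 and 446 in C4K13A and 206 in C5K13A. Each K13A library was above both parental ones, and the 2 libraries of a group differed by 1.97 times in parental and 1.89 times in C4K13A. The log2 fold change was 1.25 ± 0.40 (SE) over all K13A libraries (edgeR adjusted p = 0.313) and 1.45 ± 0.38 in C4K13A (adjusted p = 0.167). EAF2, which binds ELL proteins, was scarce, with 1.88 and 3.66 CPM in parental, 4.52 and 6.28 in C4K13A and 4.54 in C5K13A. Its K13A libraries also lay above the parental ones, at 0.88 ± 0.36 over all K13A libraries (edgeR adjusted p = 0.426). The EAF2 value was 0.48 without parental library 1 and 1.44 without parental library 2. Without C4K13A library 2, the ELL2 value was 0.83 over all K13A libraries and 0.92 in C4K13A. For ELL2 the log2 difference was 1.48 between the libraries with low ribosomal RNA and 0.87 between those with high, which include C5K13A. For EAF2 it was 1.07 and 0.49. ZBTB10, a zinc finger repressor, ranged from 170.2 CPM in parental library 2 to 276 in C4K13A library 2.

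SPDEF, the ETS factor, had 190.2 and 174 CPM in parental, 309 and 270.05 in C4K13A and 175 in C5K13A. The C4K13A libraries were above the rest, and C5K13A lay between the parental ones. Its log2 fold change in C4K13A was 0.67 ± 0.18 (edgeR adjusted p = 0.182), and C5K13A minus C4K13A was -0.73 ± 0.23 (adjusted p = 0.640). MAF, a basic leucine zipper factor, had 44.6 and 24.6 CPM in parental, 39.4 and 30.7 in C4K13A and 12.0 in C5K13A. The C4K13A libraries lay within the parental range and C5K13A was below all 4 others. Against parental, C5K13A stood at -1.53 ± 0.38 (edgeR adjusted p = 0.401), and against C4K13A at -1.55 ± 0.38 (adjusted p = 0.393). On the low and high ribosomal RNA sides, SPDEF had 0.70 and 0.32 and MAF had -0.17 and -0.35. MED28, a Mediator subunit, varied least of these, from 47.6 to 54.7 CPM, and 32.1% of its exon bases overlap those of FAM184B on the other strand. The strand setting of the counting is not given, so reads of such pairs cannot be told apart. SPDEF and MAF, and ABCC4, SLC45A3, TRPM8, TMPRSS2 and PTGER4 below, fell outside the rule for genes given with full statistics and were added after their values were seen.

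All 5 transporters and channels had negative fold changes in each of the 4 comparisons, and 0 were called. The median was -0.50 over all K13A libraries, -0.42 in C4K13A and -1.09 in C5K13A, where all 5 lay below both parental libraries, as 35.3% of all genes did. KCNN2, a calcium-activated potassium channel, had 235 and 207 CPM in parental, 184 and 146 in C4K13A and 123 in C5K13A. No K13A library reached the parental ones, and the log2 fold change was -0.55 ± 0.20 (edgeR adjusted p = 0.364). SLC43A1, a leucine transporter, had 234 and 198 CPM in parental, 196 and 125 in C4K13A and 135 in C5K13A. C4K13A library 1 was just below parental library 2, and the fold change was -0.50 ± 0.22 (edgeR adjusted p = 0.452). The low and high ribosomal RNA sides gave -0.35 and -0.63 for KCNN2 and -0.25 and -0.60 for SLC43A1.

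The other 3 overlapped between C4K13A and parental and were lowest in C5K13A. ABCC4, a pump that exports cyclic nucleotides (chr13:95019829-95301475, minus strand), had 277 and 165 CPM in parental, 189.6 and 113 in C4K13A and 73.7 in C5K13A. In C5K13A its log2 fold change was -1.58 ± 0.41 (edgeR adjusted p = 0.462). TRPM8, a cold-gated cation channel, had 70.2 and 51.2 CPM in parental, 42.97 and 61.8 in C4K13A and 25.7 in C5K13A, a change of -1.24 ± 0.31 (adjusted p = 0.417). SLC45A3, known as prostein and as a fusion partner in prostate cancer, had 165 and 209 CPM in parental, 197 and 134 in C4K13A and 88.0 in C5K13A. Its change in C5K13A was -1.09 ± 0.30 (edgeR adjusted p = 0.497). On the low and high ribosomal RNA sides, SLC45A3 differed in direction, at 0.26 and -0.94. ABCC4 had -0.54 and -0.85 there, and TRPM8 had -0.70 and -0.36. For these 3 genes C5K13A held between 33.4% and 47.1% of the mean parental CPM. Each rests on 1 C5K13A library.

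The 5 enzymes had 4 positive fold changes over all K13A libraries, with a median of 0.42 and 0 called. PLPP1 had 328 and 525 CPM in parental, 619.7 and 894 in C4K13A and 776 in C5K13A. Every K13A library was above both parental ones, with a log2 fold change of 0.84 ± 0.25 (edgeR adjusted p = 0.284), and the clones had fitted values of 0.83 ± 0.28 and 0.86 ± 0.33. Without parental library 1 the values for PLPP1 were 0.54 over all K13A libraries, 0.53 in C4K13A and 0.56 in C5K13A, and without C4K13A library 2 the C4K13A value was 0.54. The low and high ribosomal RNA sides gave 0.92 and 0.67. Of its exon bases 28.4% overlap those of MTREX on the other strand or the pseudogene RNF138P1, so its count is uncertain to that extent. ACSL3, which activates long-chain fatty acids, had 369 and 535 CPM in parental, 639 and 569 in C4K13A and 604 in C5K13A. All K13A libraries were higher, with a fitted value of 0.42, and it was not called. GNMT, a glycine methyltransferase, ran from 20.6 CPM in C4K13A library 2 to 31.8 in C5K13A. NNMT, a nicotinamide methyltransferase, was low, from 0.544 CPM in C5K13A to 2.68 in C4K13A library 1. STEAP4, a metalloreductase, had 12 to 44 counts in the 5 libraries.

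TMPRSS2 and ADAM7 had negative fold changes, and neither was called. TMPRSS2 (chr21:41464551-41531116, minus strand) had 711 and 319 CPM in parental, 358 and 139 in C4K13A and 107 in C5K13A. C4K13A library 1 overlapped the parental libraries, and the parental libraries themselves differed by 2.23 times. Over all K13A libraries the log2 fold change was -1.36 ± 0.51 (edgeR adjusted p = 0.397), in C4K13A -1.05 ± 0.48 (adjusted p = 0.430) and in C5K13A -2.27 ± 0.65 (adjusted p = 0.528). The low and high ribosomal RNA sides gave -0.99 and -1.39, with C5K13A on the high side only. Single libraries moved these values. Without parental library 1 they were -0.66 over all K13A libraries, -0.36 in C4K13A and -1.58 in C5K13A, and without parental library 2 they were -1.82, -1.52 and -2.74. Without C4K13A library 1 the value was -2.07 over all K13A libraries and -1.88 in C4K13A, and without C4K13A library 2 the C4K13A value was -0.52. Most of these fits left 1 library in a group, so only their fold changes are given for TMPRSS2. ADAM7, an ADAM-family gene best known from the epididymis, had 12 to 79 counts, the highest in parental library 2, and its groups overlapped.

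FKBP5 (chr6:35573585-35728583, minus strand; ENSG00000096060) had 156 and 219.9 CPM in parental, 532 and 451 in C4K13A and 272 in C5K13A. Both C4K13A libraries were above both parental ones, and C5K13A lay between. In C4K13A the log2 fold change was 1.39 ± 0.22 (edgeR adjusted p = 0.0421), in C5K13A 0.53 ± 0.26 (adjusted p = 0.787), and over all K13A libraries 1.15 ± 0.30 (adjusted p = 0.233). C5K13A minus C4K13A was -0.85 ± 0.28 (edgeR adjusted p = 0.667), so the difference between the clones did not pass the test. Without parental library 1 the C5K13A value was 0.31. The low and high ribosomal RNA sides gave 1.76 and 0.67, with C5K13A on the high side only. The call in C4K13A ended without C4K13A library 1 (log2 fold change 1.27, adjusted p = 0.0836), without C5K13A (adjusted p = 0.0526) and with a filter at 5 CPM (adjusted p = 0.0772).

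**Figure D4:**
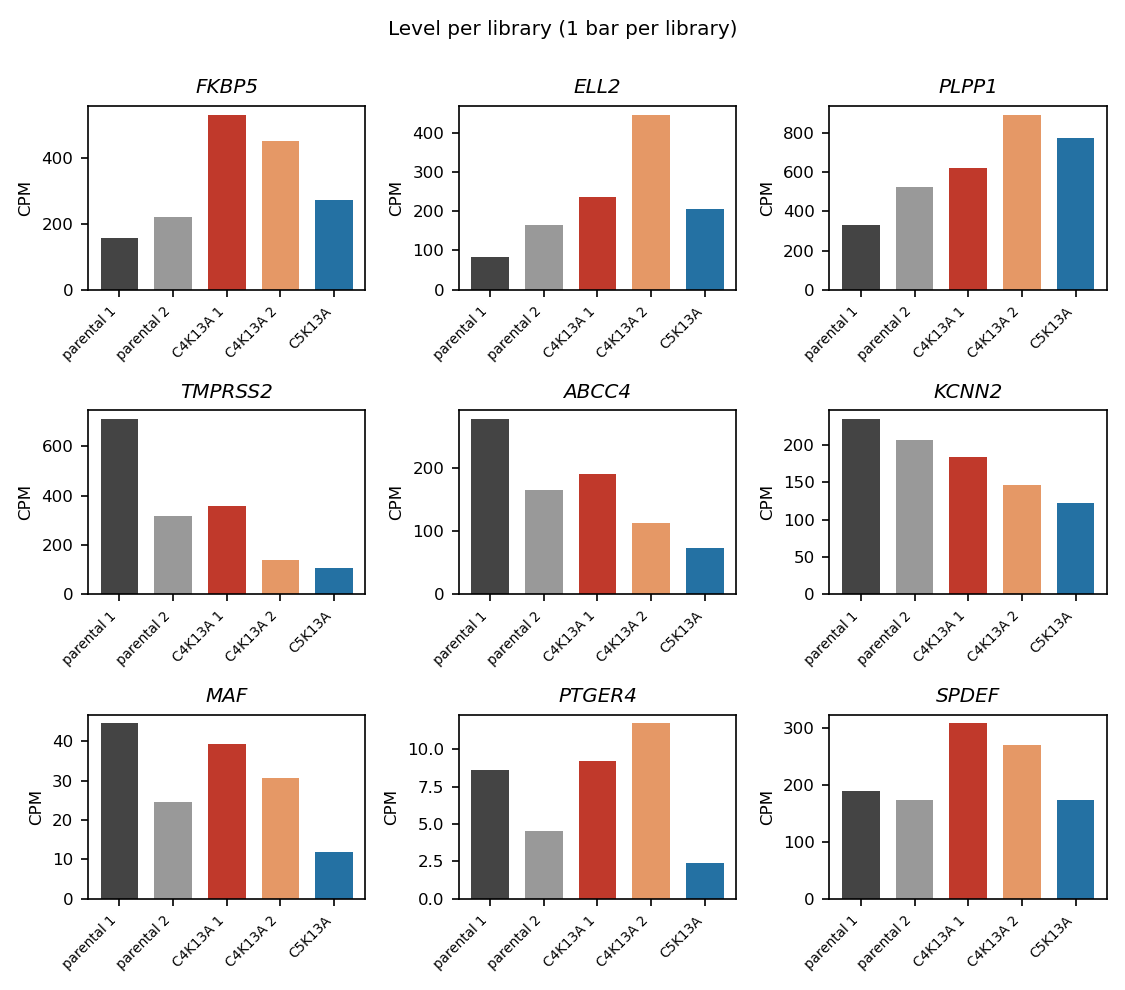
CPM in each of the 5 libraries, 1 bar per library, for 9 of the 31 genes. FKBP5 is highest in both C4K13A libraries (532 and 451 CPM) and TMPRSS2 runs from 711 CPM in parental library 1 to 107 in C5K13A.

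The 8 other genes of signalling and trafficking were not called. PTGER4, the prostaglandin E receptor EP4, had 8.59 and 4.53 CPM in parental, 9.23 and 11.7 in C4K13A and 2.41 in C5K13A. It was the 1 gene of the 31 with both C4K13A libraries above and C5K13A below the parental ones. C5K13A minus C4K13A was -2.12 ± 0.47 on the log2 scale (edgeR adjusted p = 0.311). On the low and high ribosomal RNA sides, PTGER4 had 0.099 and 0.25. PMEPA1, an inhibitor of TGF-beta signalling, had 488 and 409 CPM in parental, 388 and 386 in C4K13A and 262 in C5K13A, the lowest. CAMKK2, a kinase upstream of AMPK, had 257 and 138 CPM in parental, 221 and 116.1 in C4K13A and 90.3 in C5K13A, the lowest. LIFR, the receptor of leukaemia inhibitory factor, had 45.8 and 41.4 CPM in parental, 61.2 and 67.9 in C4K13A and 43.8 in C5K13A. The C4K13A libraries were the highest. NDRG1, a hypoxia- and androgen-induced gene, had 141 and 189 CPM in parental, 201 and 188 in C4K13A and 105 in C5K13A, the lowest. HOMER2, a scaffold protein, ran from 104 to 143 CPM and RAB3B, a small GTPase of secretory vesicles, from 103 to 139 CPM. SGK1, a kinase better known as a glucocorticoid target, had 3.41 and 3.59 CPM in parental, 3.22 and 1.77 in C4K13A and 2.53 in C5K13A.

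In each of the last 4 genes the highest CPM was less than 2 times the lowest. HERC3, a ubiquitin ligase, ran from 39.7 to 63.4 CPM, and both C4K13A libraries were the highest. MPHOSPH9, a centrosomal protein, ran from 46.8 to 70.8 CPM. CENPN, a kinetochore protein, ran from 86.3 to 144 CPM, the highest in C5K13A, and 15.5% of its exon bases overlap other genes. C1orf116, also called SARG for its androgen regulation, ran from 235 to 289.8 CPM. Their 4 fold changes over all K13A libraries were all positive, from 0.11 to 0.30, and 0 were called.

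Some of these genes moved with library number in both the parental and the C4K13A group, as many of all genes did. Library 1 was above library 2 in both the parental and the C4K13A group for 11 of the 31 genes (35.5%, beside 28.5% of all genes), among them TMPRSS2, ABCC4, CAMKK2 and KCNN2. It was below in both for EAF2, ELL2, PLPP1, HOMER2, CENPN and C1orf116, 6 of 31 (19.4%, beside 26.4%). In both groups library 1 is on the low side of the ribosomal RNA split and library 2 on the high side. The low side sets C4K13A library 1 against parental library 1. The high side sets the mean of C4K13A library 2 and C5K13A against parental library 2. K13A was above parental on both sides for 13 of the 31 genes (41.9%) and below on both for 11 (35.5%). The share over all genes was not computed, so these counts have no background to be read against. The part of the split in the results was not tested.

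Other genes of steroid hormone signalling were set beside these from lists chosen by function. NR3C1, the glucocorticoid receptor, which shares many of these target genes, had 15 and 18 counts in parental, 3 and 0 in C4K13A and 0 in C5K13A (edgeR adjusted p = 0.306), so it was near its detection limit throughout. NR3C2, the mineralocorticoid receptor, ran from 53.0 CPM in parental library 1 to 90.2 in C5K13A. PGR, the progesterone receptor, was scarce, with 1.24 and 0.552 CPM in parental, 1.16 and 0.860 in C4K13A and 0.142 in C5K13A. Its log2 fold change in C5K13A was -2.65 ± 0.84. None of NR3C1, NR3C2 and PGR was called, and 0 of the 6 tested pioneer and lineage factors were. FOXA1 had 556 and 654 CPM in parental, 569 and 478 in C4K13A and 499 in C5K13A, a log2 fold change of -0.23 ± 0.16 over all K13A libraries (edgeR adjusted p = 0.641). The highest value among these factors was fitted for GRHL2, an epithelial factor, at 0.48, and the lowest for MEIS1, a HOX cofactor, at -0.59. MEIS2 and ETV1 were too low to be tested.

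Among 9 coactivators and 5 corepressors, 0 were called in any comparison. Fitted values over all K13A libraries ran from -0.21 for NCOA2 to 0.57 for NCOA1 among coactivators and from -0.40 for NCOR1 to 0.40 for HDAC3 among corepressors. The 5 chaperones of steroid receptors ran from -0.22 for HSP90AB1 to 0.39 for FKBP4, with 4 of 5 positive and 0 called. FKBP4 encodes another immunophilin of these complexes and had 309 and 408 CPM in parental, 457 and 504 in C4K13A and 455 in C5K13A.

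Of 19 further androgen-activated genes, kallikreins included, 18 were tested and 0 were called, with 11 positive and 7 negative values and a median of 0.13 over all K13A libraries. ALDH1A3, a retinal dehydrogenase, had the lowest value, with 79.6 and 21.0 CPM in parental, 22.9 and 13.6 in C4K13A and 8.63 in C5K13A (-1.74 ± 0.54, edgeR adjusted p = 0.306). The highest was fitted for HPGD, a prostaglandin dehydrogenase, at 0 and 8 counts in parental, 22 and 20 in C4K13A and 2 in C5K13A. As for the 31 genes, the median in C5K13A was lower than in C4K13A, at -0.15 and 0.08, beside -0.03 and -0.01 over all genes. Of 7 glucocorticoid-responsive genes 0 were called, with 3 positive and 4 negative values over all K13A libraries. Their median was also lower in C5K13A than in C4K13A, at -0.34 and -0.11, as was that of the chaperones, at 0.23 and 0.34. It was higher in C5K13A for the coactivators (0.03 and -0.09) and the corepressors (-0.02 and -0.27). For the pioneer and lineage factors it was 0.04 in each clone. TSC22D3, known as GILZ, was the lowest, with 195 and 132 CPM in parental, 99.8 and 68.0 in C4K13A and 44.1 in C5K13A (-1.21 ± 0.32, edgeR adjusted p = 0.239). PER1, a clock gene, was the highest, at 0.30. FKBP5, which is also a glucocorticoid target, and TSC22D3 read on opposite sides of the parental libraries.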

How the data were processed

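Per the labels' protocols, column-purified and DNase-treated total RNA of C4-2B cells was run on an Illumina HiSeq after RiboErase removal of ribosomal RNA. Per the submitters' processing notes, bcl2fastq, STAR 2.5 and featureCounts 1.4.6-p5 of Subread were used. The deposited values are raw counts of reads per Ensembl gene ID. Build, strand setting and handling of multiply aligned reads were not given in the sources used here. Symbols, lengths and positions came by ID from GENCODE v29 (GRCh38), which held 55297 of the 58812 IDs. Of the other 3515 IDs none is used by name.

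Groups and library numbers came from the sample titles. The test was the quasi-likelihood F-test of edgeR 4.0.16 (R 4.3.3), with TMM factors and filterByExpr, over all genes that passed the filter, which all 31 genes did, with Benjamini-Hochberg adjustment; called means an adjusted p under 0.05. All K13A libraries were compared with parental in a fit of 2 groups (3 residual degrees of freedom). The other comparisons came from a fit of 3 groups (2 residual degrees of freedom). A standard error is the fitted log2 fold change divided by the root of F. Differences within the ribosomal RNA sides, split at 200 CPM, used log2(CPM + 0.5), with C4K13A library 2 and C5K13A averaged. Scripts were tested on simulated data. No 2 libraries were close enough to be duplicates.

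The genes, roles and lists were chosen with earlier results of these data known. A gene of the lists is not reported here. All 31 genes are named. Of these, fold changes with errors are given for those called, or with all K13A libraries on one side of both parental ones and a fitted size of at least 0.5, and for others said to be added. The genes of other lists given with errors were chosen after their values were seen. Alternatives were RLE factors, no filter, a filter at 5 CPM, DESeq2 1.42.0, limma-voom (limma 3.58.1), each library left out, a ribosomal RNA covariate, summed C4K13A libraries and a replicate block.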

Additional observations from a re-analysis of the deposited data

How the results depend on the processing

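Of 346 recomputed values for the named genes in the 4 comparisons, 0 changed direction, 53 newly passed the threshold and 3 no longer passed it, all 3 of them FKBP5 in C4K13A. The causes of the changes below were not tested, beyond the fewer genes or libraries that a setting leaves. Without a filter, 1167 genes and 5 of the 31 were called over all K13A libraries, 1346 and 5 in C4K13A, 578 and 8 in C5K13A, and 423 and 5 between the clones. In the same order these were 3.12%, 3.6%, 1.54% and 1.13% of the 37428 genes then tested. The filter at 5 CPM gave 2, 32, 0 and 0 genes, and 0 of the 31 in C4K13A. DESeq2 called 555 genes and 3 of the 31, 745 and 3, 235 and 4, and 182 and 2 in the same order, and limma-voom 11, 86, 0 and 0 genes. The ribosomal RNA covariate gave 71 genes over all K13A libraries and summed C4K13A libraries 11.

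With 1 library left out, the calls ran from 0 to 130 over all K13A libraries (42 with all libraries; 0 without parental library 1), 130 to 1667 in C4K13A (159), 41 to 668 in C5K13A (11) and 51 to 155 between the clones (15). Of the 31 genes, 0 to 0, 0 to 5, 0 to 7 and 0 to 2 were called. Their median ranged over -0.0071 to 0.21, 0.055 to 0.25, -0.13 to -0.12 and -0.54 to -0.36. The highest counts of the 31 genes called in C4K13A and in C5K13A were reached without parental library 2. There EAF2, ELL2, ACSL3, PLPP1 and FKBP5 were called in C4K13A, beside 7.59% of the 21974 genes tested. In C5K13A, MAF, ABCC4, TRPM8, PLPP1, TMPRSS2, PMEPA1 and PTGER4 were called, beside 3.04%. Between the clones, 0.716% of all genes were called without parental library 1 and 0.628% without parental library 2, with 2 of the 31 in each. Where a group kept 1 library, it is assumed to vary like the others.

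The labels do not say that library numbers pair samples, and deviations of same-numbered libraries correlated with r = 0.246 over 22743 genes, with only 2 pairs. A replicate block over the parental and C4K13A libraries called 885 genes, 4.35% of those tested. Among the 31 it called 4 (ELL2, PLPP1, TMPRSS2 and FKBP5), with a median of 0.22. Depth limits STEAP4, ADAM7, NR3C1 and PGR, which had under 100 counts in every library.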

Other observations

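Among the further androgen-activated genes, some had the pattern of SPDEF, highest in C4K13A, and others that of TMPRSS2, lowest in C5K13A; these were picked after their values were seen. CREB3L4, a membrane-bound transcription factor of secretory cells, had 76.2 and 62.2 CPM in parental, 138 and 115 in C4K13A and 72.9 in C5K13A (C4K13A against parental 0.87 ± 0.20, edgeR adjusted p = 0.113). CHRNA2, a nicotinic receptor subunit, had 19.3 and 22.8 CPM in parental, 36.6 and 32.1 in C4K13A and 17.1 in C5K13A. BMPR1B, a BMP receptor, had 50.6 and 20.8 CPM in parental, 26.5 and 14.6 in C4K13A and 5.11 in C5K13A (C5K13A against parental -2.80 ± 0.60, edgeR adjusted p = 0.298). NCOR1, a corepressor of nuclear receptors, was lowest in C4K13A, with 89.1 and 103 CPM there, 136 and 168 in parental and 154 in C5K13A.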
